A study of Mus musculus with 6 samples.

Results

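The cytosolic ribosomal protein genes encode the proteins of the large and small subunits of the ribosome that translates nuclear-encoded mRNAs. They were taken by gene name: symbols that start with Rpl or Rps and a digit, with Rplp0, Rplp1, Rplp2 and Rpsa, and without kinases, rows named as pseudogenes, Rps19bp1, Rpl7l1 and Rpl22l1. This gave 85 of the 22564 genes of the deposited table, by name 50 of the large and 35 of the small subunit. All 85 gene identifiers were found in the GENCODE M21 annotation, which calls Rps3a2, Rps3a3 and Rps4y2 pseudogenes. The identifier of the row named Rpl24 has 1050 codons there, against 419 for the next longest member, Rpl4. Whether that row holds the ribosomal protein gene was not tested. Labels name the tissue as liver, from C57BL/6 males 10 weeks of age, with 3 libraries control and 3 given low-dose tunicamycin (0.2 mg/kg per day into the peritoneum for 14 days). Tunicamycin blocks N-linked glycosylation of proteins in the endoplasmic reticulum and so causes unfolded proteins to build up there. The labels do not say what the controls received, nor whether the libraries of a group come from different mice. The spread between libraries behind the p-values may therefore be technical. The main test below, limma, took that spread from genes of like abundance rather than from each gene alone.

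Each ribosome carries a single copy of most of these proteins, apart from the stalk proteins Rplp1 and Rplp2, and cells make them in matched amounts. Their mRNAs begin with a pyrimidine-rich start, the terminal oligopyrimidine (TOP) motif, through which mTOR and the RNA-binding protein LARP1 control their translation together. Many of the genes carry small nucleolar RNAs (snoRNAs) in their introns, and mammalian genomes hold many processed pseudogene copies of them.

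The libraries were shallow and uneven. Whole reads on the genes of the table numbered 541022, 577234 and 661146 in controls 1, 2 and 3 and 611041, 553793 and 595501 in tunicamycin 1, 2 and 3. Where a gene has 0 reads, it may still hold up to 0.000454% to 0.000555% of the library (3 reads, counting error only). Control 1 held the fewest genes above 0 FPKM, 3046 against 4244 to 5482 in the others. FPKM are fragments scaled for transcript length and library size, as the authors computed them. Markers of the labelled tissue were mostly at 0. Of 17 hepatocyte markers 13 were at 0 in all 6 libraries, Ttr, Cps1 and Cyp2e1 among them, and Alb, the serum albumin gene, lay at 231, 300.5 and 213 FPKM in the control group and 133, 96.3 and 127 with tunicamycin. The summed level of the 17 genes was 358 to 492 FPKM in controls and 155 to 179 after tunicamycin, without overlap. Alb held most of this sum except in control 1, where Hnf4a lay at 262 FPKM. Of the 4 hepatocyte markers tested, 1 (Fgb) leaned higher after tunicamycin and 3 lower, and limma called none. All 9 Kupffer cell, 8 lymphocyte and 5 red blood cell markers were at 0 throughout, as were 7 of 8 endothelial markers. All 10 genes of dividing cells had reads, with a summed level of 262 to 742 FPKM in controls and 262 to 764 after tunicamycin. Of 10 squamous epithelium genes 4 were at 0, and the list summed to 1058 to 1545 FPKM in controls and 672 to 1853 after tunicamycin. Sprr1a and S100a11 held most of that sum, at 199 to 823 and 472 to 1146 FPKM. The keratins Krt5, Krt6a and Krt16 were among those at 0. Krt14 had 2 reads and Krt17 had 1, all in tunicamycin 1, and Sprr1b had reads in control 1 alone. Genes that most cells use were at 0 as well, Hprt in all 6 libraries and Gapdh in 3, so a 0 means here only that a gene is listed at 0. The part of these markers in the results below was not tested. In such bulk libraries, fewer cells of a type and less RNA per cell cannot be told apart.

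Short pyrimidine motifs were searched for at the members' starts. RefSeq starts (GRCm38.p6) were matched for 62 of the 85 symbols. The stretch from 30 bases before to 30 bases after the start held CTTTCC or CTCTTT on the transcript strand, overlaps between the motifs allowed, for 19 of the 62 (30.6%), against 5.62% of all 27025 genes with a start. On the opposite strand each of these motifs was found for 1 of the 62. CCGGAAG, a core that ETS factors bind, was searched for over a longer stretch, from 250 bases before to 50 bases after the start. There it was found on the transcript strand for 27.4% and on the opposite strand for 16.1%, against 5.40% of all genes on either strand. The stretches below are those of Rpl15 and Rps26, the members past the test described further on, of Rpl28, which varied little, of Rps6, and of Rplp2, which, like most matched members, holds neither motif. Capitals mark CTTTCC and CTCTTT, which overlap in Rpl28. A match is a description of letters and not a measured site. A stretch with neither motif may still be pyrimidine-rich at its start, as that of Rplp2 is after its first 30 bases.
Rpl15: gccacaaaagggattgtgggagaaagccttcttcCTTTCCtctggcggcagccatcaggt
Rps26: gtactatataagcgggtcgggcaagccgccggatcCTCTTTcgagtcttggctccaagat
Rpl28: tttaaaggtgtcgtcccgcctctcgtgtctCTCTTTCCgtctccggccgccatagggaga
Rps6: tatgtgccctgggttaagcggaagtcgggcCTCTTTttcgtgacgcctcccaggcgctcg
Rplp2: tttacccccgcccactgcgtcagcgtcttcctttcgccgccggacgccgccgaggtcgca
They lie at chr14:18270957-18271016 (minus strand), chr10:128626477-128626536 (minus strand), chr7:4792935-4792994 (plus strand), chr4:86857338-86857397 (minus strand) and chr7:141447621-141447680 (plus strand). A snoRNA gene lay inside 35.3% of the 85 genes on the same strand, against 1.17% of the protein-coding genes of the table.

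The family's summed share of FPKM was nearly the same in all 6 libraries, and its share of reads varied more. The 85 genes held 9.31%, 9.81% and 9.62% of the FPKM of controls 1, 2 and 3 and 9.68%, 9.74% and 9.27% of those of tunicamycin 1, 2 and 3. The groups overlapped, with means of 9.58% ± 0.25 and 9.56% ± 0.26 (SD, n = 3 each). Of the reads they held 3.19%, 3.54% and 3.27% in controls and 3.39%, 3.47% and 2.87% after tunicamycin, again with overlap. The means differed by -0.085 percentage points of reads and by -0.017 of FPKM (tunicamycin minus control), less than the SD between libraries of either group. Without Rps26 the difference in FPKM share was positive, as given further on. The SD between libraries of the share without Rps26 was not computed. No p was computed for these sums. The sign of both differences turned with Lars2 and the mitochondrially encoded genes left out of the totals (0.047 for reads and 0.052 for FPKM).

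**Figure D1:**
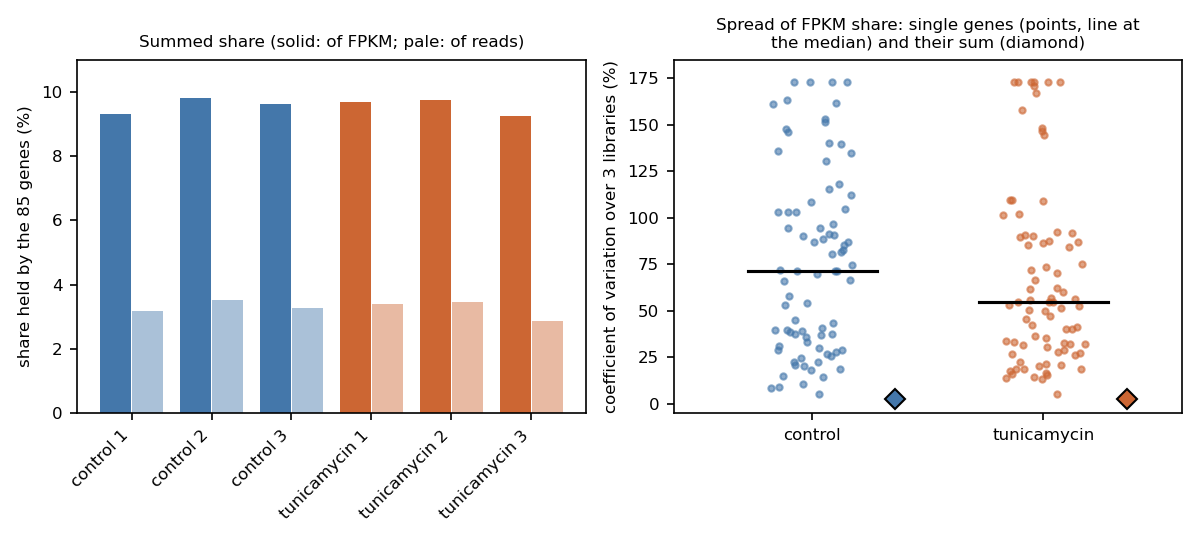
Left: share of each library's FPKM (solid bars) and reads (pale bars) held by the 85 genes, in %. Right: coefficient of variation of the FPKM share over the 3 libraries of a group, for each gene above 0 (points, line at the median) and for their sum (diamond). The sum stands at 2.64% in controls and 2.68% after tunicamycin, below every single gene (lowest 5.45% and 5.46%).

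Single members varied far more than their sum. The coefficient of variation of a member's FPKM share over the 3 libraries of a group had a median of 71.5% in controls and 54.7% after tunicamycin. That of the sum was 2.64% and 2.68%. Had the members varied independently with the spread each showed, the sum would have varied by 6.78% and 6.65%. In reads this did not hold, since the sum varied by 5.48% and 9.97% against 5.62% and 5.96% for independent members. With 3 libraries a group these coefficients are themselves uncertain.

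The swings within a group were often all or nothing. Of the 85 genes, 49 had a read in all 6 libraries, 32 in some and 4 in none. Among genes averaging 1 FPKM or more, 60.5% of members had a read in all 6, against 13.8% of all genes. Gaps were thus rarer among members than over all genes. Among controls, 20 members had at least 100 reads in 1 library and at most 5 in another, and among tunicamycin libraries 11 did. This was not counted over all genes. Control 1 stood out for members listed near 0 in it alone. With at least 40 reads in each of the other 5 libraries and at most 5 in control 1 there were 8 members, Rpl3, Rpl19, Rpl22, Rpl39, Rplp1, Rps9 and Rps29 among them, of 47 with that many reads in the other 5 (17.0%). Over all genes the share was 30.5% (248 of 814), a higher share than among the members. By the same measure Rpl11, Rpl23 and Rps20 were low in tunicamycin 3 alone, and Rpl31 and Rps25 in control 3 alone. Rpl35a showed the opposite pattern, with 152 reads in control 1 and 0, 1, 5, 0 and 0 in the other libraries in order.

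**Figure D2:**
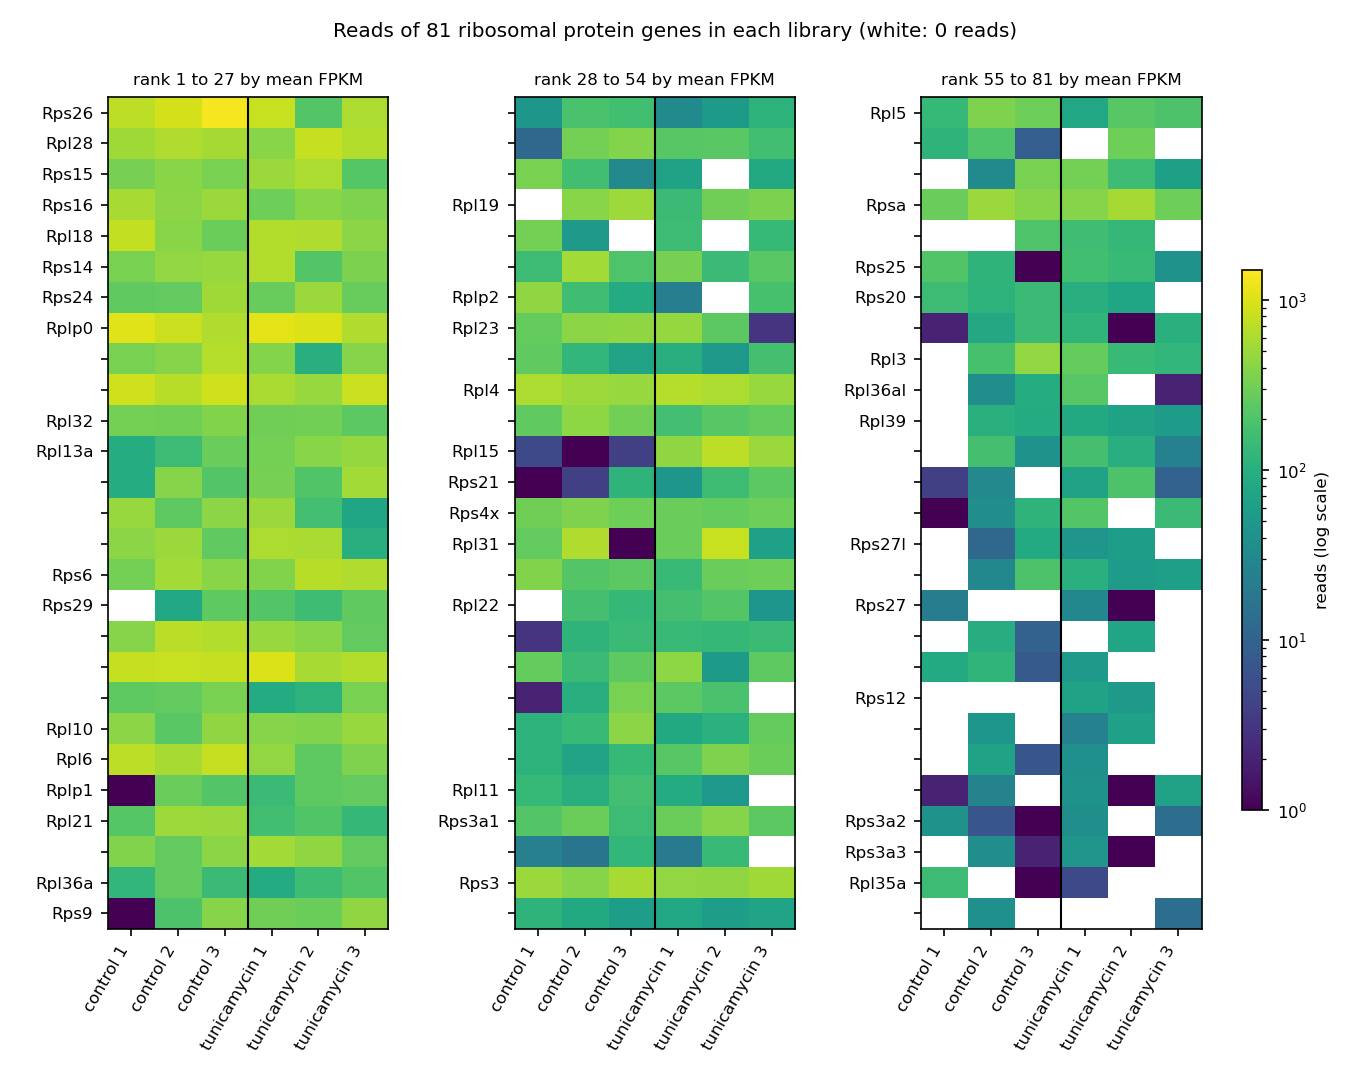
Reads of the 81 ribosomal protein genes above 0 (rows, by mean FPKM over 3 panels, labelled where the text names the gene) in each of the 6 libraries (columns, controls left of the black line), with colour on a log scale and white for 0 reads. Upper rows are filled throughout, lower rows have gaps in both groups, and Rpl15 is dark in the 3 controls and bright in the 3 tunicamycin libraries.

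Across the 81 members above 0, libraries ranked the genes alike to a moderate degree. Spearman's rho of FPKM between libraries was 0.43 to 0.67 over the 6 pairs of libraries within a group and 0.35 to 0.65 over the 9 pairs between groups. These correlations are across genes, which are not independent replicates and share each library's depth.

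The most abundant members lay in both subunits. Per length, the highest mean over the 6 libraries was that of Rps26 (1525 FPKM), which lines the channel where the mRNA leaves the small subunit. Rpl28, a large-subunit protein, followed at 851 FPKM, and then the small-subunit genes Rps15 and Rps16 at 662 and 631, Rpl18 at 626, Rps14 and Rps24 at 577 and 532, and Rplp0 at 531. The median member lay at 218 FPKM. Neighbours in that order overlapped in their library values, Rps26 and Rpl28 included.

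The steadiest members gave nearly level values. Rpl4, which lines the tunnel through which the new chain leaves, lay at 276, 225 and 200 FPKM in the control group and 268, 273 and 203 with tunicamycin, a 1.38-fold span over the 6 libraries. Rpl28 lay at 709, 802 and 756 FPKM and then 795, 1034 and 1008, a 1.46-fold span. In both genes the groups overlapped. Rpl32, Rps3 and Rps4x spanned 1.58-, 1.62- and 1.76-fold. Rps3 sits where the mRNA enters the small subunit, and Rps4x is the X-linked copy of its gene.

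The stalk proteins, which recruit translation factors to the large subunit, did not move together. Rplp0, the base of the stalk, lay at 708, 517 and 367 FPKM in the control group and 697, 533 and 362 with tunicamycin. Rplp1 lay at 1.83, 474 and 358 FPKM and then 225, 424 and 427, with a single read in control 1. Rplp2 lay at 745, 356 and 85.1 FPKM and then 38.5, 0 and 351. Rplp1 was near 0 in control 1, where Rplp2 was highest, and Rplp2 was at 0 in tunicamycin 2. None of the 3 passed the test (smallest limma adjusted p = 0.416, Rplp2).

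Rpl5 and Rpl11, which in human cells bind MDM2 when ribosome assembly fails and so stabilise p53, overlapped between groups in FPKM. Rpl5 lay at 117, 153 and 217 FPKM in the control group and 52.5, 191 and 129 with tunicamycin. Rpl11 lay at 537, 226 and 141 FPKM and then 71.7, 190 and 0. In reads Rpl11 did not overlap, with 135, 100 and 170 in controls and 90, 50 and 0 after tunicamycin, and it did not pass the test (limma adjusted p = 0.629, edgeR adjusted p = 1.00). Tunicamycin 3, with 0 reads of Rpl11, held 193 of Rpl5. Rps6, the substrate of the S6 kinases, lay at 285, 417 and 302 FPKM and then 273, 533 and 509, with overlap.

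The design asks which members differ between tunicamycin and control. The test was limma on log2(FPKM + 1), 2-sided, over 7696 genes whose FPKM averaged 1 or more, at an adjusted p under 0.05. Of the 85 members 81 entered it, and the 4 others were at 0 in all libraries. Rpl15 rose and Rps26 fell, so 1 of 81 members (1.23%) was called in each direction, where 0.052% of all genes tested were called higher and 0.013% lower. The 5 genes called in all were Rpl15, Rps26, Usp14, Lars2 and mt-Cytb. edgeR's quasi-likelihood test on whole reads called Rpl15 higher (0.039% of genes) and no member lower (0%), with 115 genes at an unadjusted p under 0.05. DESeq2 gave an adjusted p to 71 members and called Rpl15 higher (0.572% of genes) and none lower (0.687%).

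Rpl15 showed the largest limma log2 fold change of the family. Its protein sits in the core of the large subunit and is needed for rRNA processing in human cells. It lay at 4.57, 0.867 and 3.34 FPKM in the control group and at 358, 643 and 419 with tunicamycin, with 5, 1 and 4 reads and then 446, 729 and 497. Every tunicamycin library stood far above every control. The ratio of means was 162 in FPKM and 167 in reads. The log2 fold change was 7.01 (SE 1.38, limma adjusted p = 0.00103; edgeR 7.51, adjusted p = 6.01e-07; DESeq2 7.40, adjusted p = 5.65e-11). Of the 7696 genes tested 2 had at most 20 reads in every control and at least 100 in every tunicamycin library, and Rpl15 was the only member among them. limma's call was lost without the variance trend, without the filter on low values and, over the same genes, with any single library left out. With the filter applied again it was also lost without control 1 (adjusted p = 0.110) and without tunicamycin 1, 2 or 3 (adjusted p = 0.859, 0.870 and 0.835). edgeR called Rpl15 with each library left out in turn (log2 fold change 7.13 to 7.77).

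Rpl15 lies on chromosome 14 (18267823 to 18271391, minus strand, mm10), but the table gives it a locus of 18267822 to 18331859 that it shares with Nkiras1 and Ube2e1. Nkiras1, an inhibitor of NF-kappa-B signalling on the opposite strand, overlaps the Rpl15 gene by 256 bases and held 82 reads in tunicamycin 2 and 0 in the other libraries. Ube2e1, a ubiquitin-conjugating enzyme, held 0, 42 and 0 reads in controls and 28, 42 and 0 after tunicamycin. Neither followed Rpl15. The coding sequence of Rpl15 (612 bases before the stop codon) is repeated without a difference in the pseudogene Rpl15-ps3 on chromosome 9 and with 8 differences over 610 bases in Rpl15-ps2, also on chromosome 9. Reads from such copies cannot be told apart over most of their length, and neither pseudogene was analysed here. Coding bases 295 to 354 show the 3 differences that fall closest together, in capitals.
Rpl15: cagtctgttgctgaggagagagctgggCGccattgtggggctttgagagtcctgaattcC
Rpl15-ps2: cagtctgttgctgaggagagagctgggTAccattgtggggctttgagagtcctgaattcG

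Rps26 lay at 1574, 1847 and 2684 FPKM in the control group and 1459, 429 and 1158 with tunicamycin. Every tunicamycin library was below every control, but tunicamycin 1 was close to control 1. The log2 fold change was -1.14 (SE 0.27, limma adjusted p = 0.0388). That SE came from genes of like abundance and not from the spread of Rps26 itself. In reads the groups overlapped, with 734, 931 and 1368 and then 823, 211 and 603, and neither edgeR (adjusted p = 0.642) nor DESeq2 (adjusted p = 1.00) called it. limma's call was lost under every alternative tried except a smaller pseudocount, and its log2 fold change was -0.61 without tunicamycin 2 (-1.49 without tunicamycin 1). Rps26-ps1, a pseudogene row outside the family by name, held 7, 83 and 168 reads in controls and 87, 244 and 61 after tunicamycin, highest in tunicamycin 2, where Rps26 was lowest. Its sequence matches 343 of the 345 coding bases of Rps26. The first 60 of them hold 1 of the 2 differences, in capitals.
Rps26: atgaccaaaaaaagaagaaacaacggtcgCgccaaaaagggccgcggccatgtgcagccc
Rps26-ps1: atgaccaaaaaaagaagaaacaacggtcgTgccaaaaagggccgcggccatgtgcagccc

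**Figure D3:**
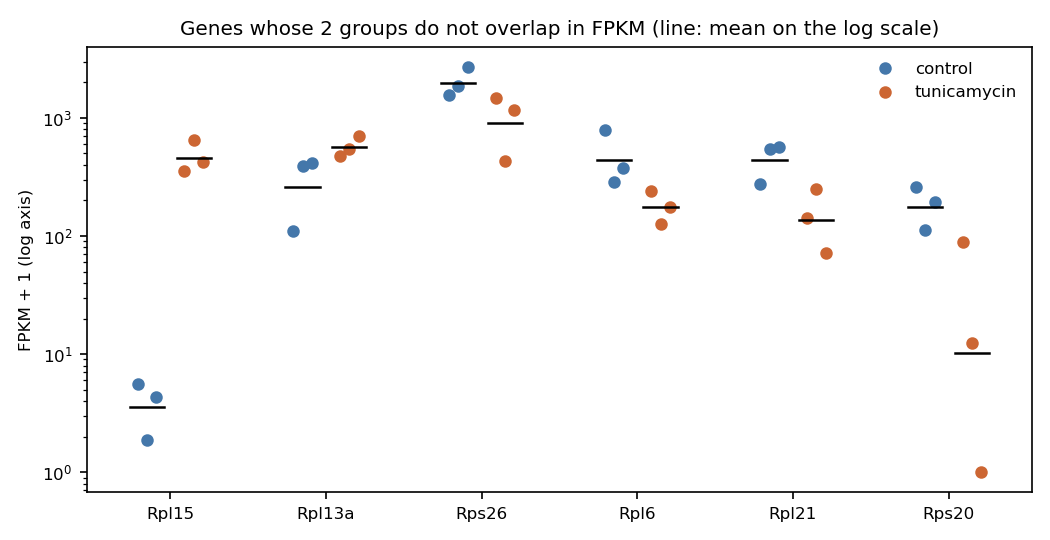
FPKM + 1 on a log axis for 6 of the 7 ribosomal protein genes whose groups do not overlap, with each library as a point and the mean on the log scale as a line. The groups of Rpl15 (0.867 to 4.57 FPKM and 358 to 643 FPKM) are far apart, whereas those of the other genes nearly touch.

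The groups did not overlap in FPKM for 7 members. These were 3 higher after tunicamycin (3.70% of 81, against 3.03% of all genes tested) and 4 lower (4.94% against 2.72%). In reads there were 3 higher (against 2.88%) and 5 lower (against 2.51%), and 6 members were separated the same way in both. Rpl11 and Rps16 were lower in reads and overlapped in FPKM. Apart from Rpl15 and Rps26 none of them passed the test, and shares this near the background are no result about the family. Rpl13a, which in human cells also silences inflammatory mRNAs outside the ribosome, lay at 109, 387 and 417 FPKM in the control group and 472, 542 and 707 with tunicamycin (fold change 1.12 on the log2 scale, SE 0.54, limma adjusted p = 0.852), and the fold change was 0.49 without control 1.

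On the lower side, Rps20, a protein of the small-subunit head, lay at 258, 111 and 193 FPKM in the control group and 87.3, 11.4 and 0 with tunicamycin (fold change -4.11 on the log2 scale, SE 1.36, limma adjusted p = 0.716). Its reads were closer, at 149, 113 and 148 and then 102, 73 and 0, and edgeR gave -1.02. Without tunicamycin 3 the limma value was -2.42. Rpl21 lay at 274, 541 and 571 FPKM and then 140, 247 and 71.3 (log2 fold change -1.69, SE 0.67, limma adjusted p = 0.852). Rpl6 lay at 784, 287 and 374 FPKM and then 239, 125 and 176 (log2 fold change -1.33, SE 0.63, limma adjusted p = 0.852). Rpl21 and Rpl6 belong to the large subunit. In these 3 genes the highest tunicamycin library came close below the lowest control.

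Rps29 and Rps21, small-subunit proteins, came next to the threshold through libraries near 0. Rps29 lay at 0, 196 and 609 FPKM in the control group and 466, 392 and 601 with tunicamycin, with overlap (log2 fold change 3.28, SE 0.83, limma adjusted p = 0.0994). Rps21 lay at 2.65, 7.08 and 277 FPKM and then 99.1, 390 and 558 (log2 fold change 3.79, SE 1.12, limma adjusted p = 0.329). The value for Rps29 rests on control 1, with 0.47 without that library against 3.28, and edgeR gave 0.98 on all 6. Without control 3 it was 5.09 for Rps29 and 5.69 for Rps21. Rps29 was called with quantile scaling, and both were called without control 3 when the filter on low values was applied again.

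Over the 81 members tested, log2 fold changes were balanced, 40 positive and 41 negative, with a median of -0.04 against 0.10 over all genes tested. The median turned positive with median-of-ratios scaling (0.08, all genes 0.15) and with quantile scaling (0.16, all genes 0.12). In the large subunit 21 were positive and 26 negative (median -0.18), and in the small subunit 19 and 15 (median 0.07). A change of more than 1 in either direction was reached by 49.4% of members and 61.9% of all genes tested.

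**Figure D4:**
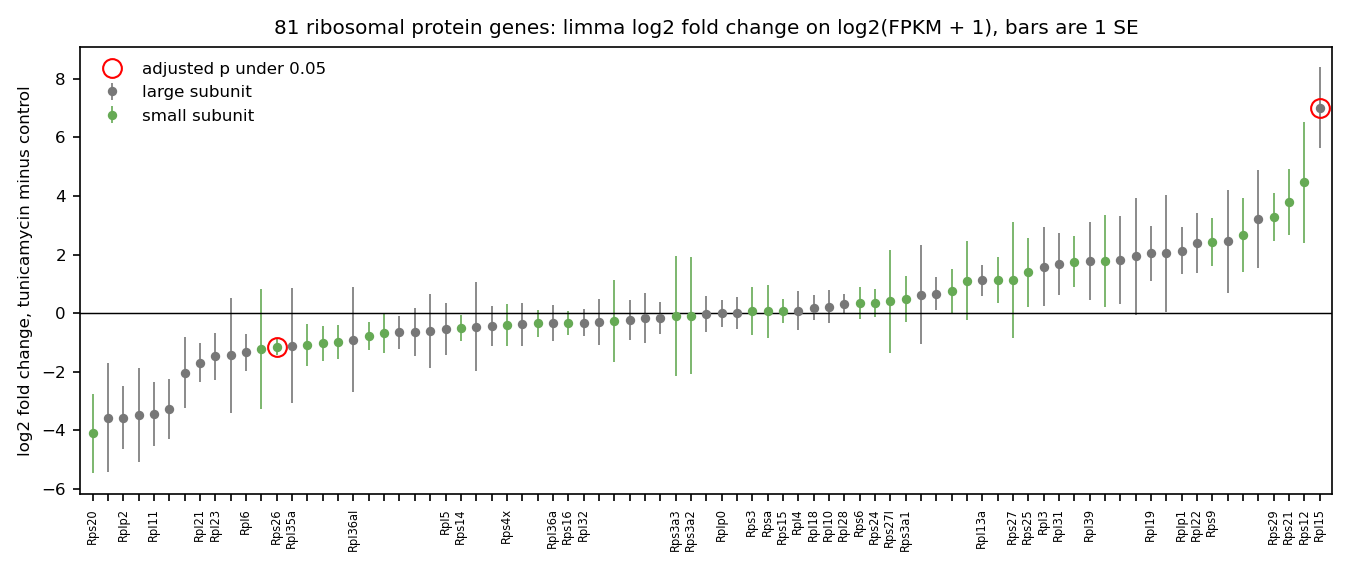
limma log2 fold change (tunicamycin minus control, on log2(FPKM + 1)) of the 81 ribosomal protein genes tested, in order and labelled where the text names the gene, with 1 SE as bars and colour by subunit. Values run from -4.11 (Rps20) to 7.01 (Rpl15) with 49.4% of genes beyond 1 in either direction, and red circles mark Rps26 and Rpl15, whose adjusted p was under 0.05.

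FPKM and reads did not always tell the same story. FPKM are also scaled for transcript length, and the part of that scaling in the difference was not tested. For 79 members with at least 20 reads in at least 2 libraries, the length implied by reads and FPKM was compared between libraries. This implied length restates the ratio of reads to FPKM and was not read from the data. It differed at least 1.5-fold for 23 members, and by 10.8-fold for Rps20. For Rps26 it differed 1.2-fold. For Rpl15 it differed 1.03-fold among the tunicamycin libraries alone, since every control had under 20 reads. It was therefore not compared between groups for Rpl15.

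Much of the family's sequence recurs elsewhere in the genome. A median of 52.1% of a member's overlapping stretches of 50 bases were found unchanged in transcripts of another gene (GENCODE M21, same build). For 9 members less than 10% were so repeated. Of these, Rps15a, Rps20 and the row named Rpl24 were compared over transcripts of 5130, 3706 and 4920 bases, against a median of 795 over members. The part of transcript length in these shares was not tested. Members with a read in all 6 libraries and the 32 tested members with gaps had medians of 52.3% and 57.6%. Rps12 had 0 reads in all 3 controls and 68, 52 and 0 after tunicamycin, while Rps12-ps3, a row left out by its name that repeats all 396 coding bases, held 148, 4 and 2 reads and then 1, 1 and 6. No fold is given for Rps12, and its difference missed the threshold (limma adjusted p = 0.852). Rps3a1 held 211, 287 and 151 reads in controls and 294, 392 and 240 after tunicamycin, and the near-identical Rps3a2 and Rps3a3 at most 45 in any library.

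Tissue-restricted members were listed at 0. Rpl3l, which replaces Rpl3 in striated muscle, and Rpl10l and Rpl39l, which stand in for Rpl10 and Rpl39 in male germ cells, were at 0 in all libraries, as was Rps4y2. Their widely expressed partners were present, Rpl10 at 384, 210 and 376 FPKM in the control group and 330, 339 and 435 with tunicamycin, Rpl39 at 0, 128 and 110 and then 95.7, 84.9 and 67.6, and Rpl3 at 0, 82.6 and 200 and then 116, 66.6 and 57.0. In the remaining pairs both copies had reads, in differing libraries. Rpl36a held 127, 261 and 146 reads and then 89, 157 and 205, and Rpl36al 0, 37 and 93 and then 222, 0 and 2. Rps27 held 22, 0 and 0 reads and then 30, 1 and 0, and Rps27l 0, 12 and 87 and then 45, 60 and 0. In the pair of Rps27 and Rps27l the proteins' coding sequences match at 76.2% of positions, and in that of Rpl36a and Rpl36al at 87.7%. None of these genes passed the test.

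Other genes that belong to the ribosome or share its control were read from the same fit. Fau and Gnb2l1 (RACK1) encode further ribosomal proteins under other names. Gnb2l1 lay at 511, 463 and 397 FPKM in the control group and 334, 178 and 238 with tunicamycin, without overlap in FPKM but with overlap in reads (log2 fold change -0.91, limma adjusted p = 0.852). Fau lay at 0, 270 and 624 FPKM and then 483, 466 and 2.66, at 0 in control 1 and low in tunicamycin 3.

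Of 21 other TOP mRNAs tested, mostly translation factors, 8 leaned higher and 13 lower in log2 fold change (median -0.24), and limma called none. Eef1a1, the elongation factor that delivers tRNA, lay at 2196, 1818 and 2272 FPKM in the control group and 1078, 1722 and 1547 with tunicamycin, without overlap in FPKM but with overlap in reads (log2 fold change -0.55, limma adjusted p = 0.852). Btf3, part of the nascent chain complex, lay at 214, 53.8 and 52.0 FPKM and then 0, 0 and 89.6. Tpt1, another abundant TOP mRNA, lay at 384, 170 and 255 FPKM and then 7.19, 70.0 and 227.

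Of 55 ribosome biogenesis genes tested 31 were positive and 24 negative (median 0.51), with none called by limma and 1 by DESeq2. That gene was Grwd1, a nucleolar chaperone, with no read in any of the 3 controls and 29.3, 36.8 and 25.9 FPKM after tunicamycin (DESeq2 adjusted p = 0.0220, limma adjusted p = 0.852). Its reads were 99, 115 and 78 after tunicamycin. Rrp1b, a nucleolar protein, lay at 43.4, 81.9 and 150 FPKM in the control group and 0, 97.2 and 6.62 with tunicamycin, and Nhp2, a protein of box H/ACA snoRNA particles, at 0 in controls and 0, 43.4 and 114 after tunicamycin. Sbds, which helps release eIF6 from the large subunit, had the opposite order, at 45.3, 24.0 and 20.7 FPKM and then 0.371, 0 and 0, without reaching a threshold (limma adjusted p = 0.852, DESeq2 adjusted p = 0.0752). In Grwd1 and Sbds the groups did not overlap. RNA polymerase I and its factors (5 positive and 8 negative of 13 tested), ribosome rescue (9 and 5 of 14), the mTOR and LARP1 control of TOP mRNAs (11 and 8 of 19) and p53 targets with their regulators (3 and 4 of 7) held no gene that limma, edgeR or DESeq2 called. In ribosome rescue, Zfp598, the ligase that marks collided ribosomes, lay at 54.1, 39.6 and 14.8 FPKM in the control group and 0, 0 and 4.25 with tunicamycin, without overlap (limma adjusted p = 0.852).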

How the data were processed

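RNA of 6 libraries was sequenced, 3 control and 3 tunicamycin as their labels group them. Per the labels' protocols, ribosomal RNA was depleted and stranded libraries were made. Per the submitters' processing notes, CASAVA 1.8, cutadapt 1.9.3, HISAT2 2.0.4, the mm10 build and Cuffdiff were used, with no strand setting stated for the counting. For every gene the authors deposited FPKM and an estimated count in each library. In each library 97.2% to 98.0% of the deposited estimated counts above 0 were whole multiples (within 0.01) of a step of 0.9953 to 1.0953, and whole reads were obtained by dividing by it and rounding.

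A limma 3.58.1 model with group alone as a term and a mean-variance trend (R 4.3.3) was fitted to log2(FPKM + 1) for 7696 genes averaging 1 FPKM or more, with Benjamini-Hochberg adjustment over all of them. A fold change on this scale understates the change of low genes. The variance prior had infinite degrees of freedom with all 6 libraries, so that each SE came from the trend over genes of like abundance. edgeR 4.0.16 (quasi-likelihood, TMM) and DESeq2 1.42.0 (poscounts) on the whole reads were alternatives, with other pseudocounts, filters and scalings, a replicate block and leaving out each library. An adjusted p that DESeq2 did not give was left missing. All fits were tested on simulated data.

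Genes named were members called by any tool, the 8 with the highest mean FPKM, up to 6 members in each direction whose groups do not overlap, the 6 with the smallest span over libraries, those at 0, paralog pairs, and up to 4 genes with the smallest p of each other list. Rps29, Rps21, Rps12, Rps3a1 and its copies, Rps6, Rpl5, Rpl11, Rplp1, Rplp2, Rpl35a and members that 1 library lacked were chosen after their values were seen. The members and lists were chosen with earlier results of these data known. Positions and transcripts came from GENCODE M21 and gene starts from RefSeq, read with Python 3.11.15. In the table, 1 line was not analysed here. A few named genes are not reported here.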

Additional observations from a re-analysis of the deposited data

How the results depend on the processing

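limma called 5 genes, 2 of them ribosomal protein genes. With a pseudocount of 10, or with a mean FPKM of at least 10, these numbers became 2 and 1. With no filter, and with no variance trend, both became 0. With median-of-ratios scaling 1 member was called. edgeR called 3 genes and 1 member, and DESeq2 called 44 genes and 1 member. With any library left out limma called 0 genes and 0 members over the same genes, 0 to 7 genes and 0 to 3 members with the filter applied again, and edgeR called 3 to 6 genes and 1 member. Of the ribosome biogenesis, TOP and rescue lists DESeq2 called 1 gene, against 0 by limma.

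The replicate block gave 0 genes and 0 members with limma, and 3 genes and 1 member with edgeR. Under it the adjusted p of Rpl15 was 0.0726 with limma and 1.26e-05 with edgeR. Libraries with the same number did not deviate together (correlations -0.0093, -0.014 and 0.0023), so the numbers were not taken as pairs.

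The median log2 fold change of the members was 0.16 with quantile scaling, -0.23 to 0.10 with a library left out, and -0.18 to 0.29 in edgeR with a library left out (0.21 without control 2 and 0.17 without control 3). Members whose groups do not overlap numbered 12 to 19 with a library left out, where fewer libraries make separation easier. The difference in the share of FPKM was 0.349 percentage points without Rps26, and -0.152 to 0.130 with a library left out. That in reads was -0.196 to 0.101. The log2 fold changes of Rpl13a, Rpl21, Rpl6 and Rps20 kept their sign and stayed uncalled under all 29 alternatives. Rpl15 stayed called under 16 and Rps26 under 1 of 29, with the same sign throughout. The cause of these changes was not tested. Alternatives with the filter applied again, with edgeR and a block, and with edgeR and a library left out were chosen after seeing the data. Shallow depth limits members with few reads.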

Other observations

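Rows that the naming rule left out held few reads. The 25 rows named as pseudogenes summed to 169, 289 and 219 reads in controls 1, 2 and 3 and to 224, 371 and 240 in tunicamycin 1, 2 and 3, with overlap between groups. Of these rows 9 had no read in any library and 5 had a read in all. Rpsa-ps10, which matches 879 of the 885 coding bases of Rpsa, held 4, 46 and 4 reads in controls and 45, 67 and 87 after tunicamycin. Rpl23a-ps3 held 0, 113 and 37 reads and then 41, 5 and 52. Rpl7l1 held 0, 40 and 94 reads and then 72, 9 and 1. Rpl22l1 had reads in control 2 alone (34), and Rps19bp1 in tunicamycin 3 alone (66). All these genes were chosen after their values were seen.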
